A study of Mus musculus with 9 samples.

Results

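Complement components and anaphylatoxin receptors were followed in RAW264.7 cells, an established mouse macrophage-like line transformed by Abelson leukaemia virus, through 5 genes chosen by symbol: C3, Cfb, Cfp, C3ar1 and C5ar1. All 5 were found among the 12474 rows that each file holds. Poly(A) RNA was sequenced in 9 libraries, 3 for each of 3 groups, from cells labelled wild type. Mock cells received neither stimulus. The M1 group was given lipopolysaccharide at 100 ng/ml with mouse interferon gamma at 50 ng/ml, and the I group received both of these plus 20 mM potassium iodide. All groups are 1 transformed line in culture, so other cells that supply complement in tissue are absent. No library was given another potassium salt, so the effects of the iodide ion, of potassium and of the added osmolarity cannot be told apart. Nothing in the labels ties the 3 libraries of a group to separate cultures, so p-values measure the spread between libraries, which may be technical. In bulk RNA, fewer cells carrying a transcript and less of it per cell cannot be told apart.

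Complement is a cascade of plasma and locally made proteins that tags microbes and recruits leukocytes. C3 is its central component. When C3 is activated, its C3b fragment binds surfaces, joins with factor B to form the alternative pathway convertase, and is held in place by properdin, the product of Cfp. The small fragments C3a and C5a are anaphylatoxins, sensed by the G protein-coupled receptors encoded by C3ar1 and C5ar1. Macrophages both make several of these components and carry the receptors.

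The libraries held between 17431070 and 25470730 fragments, recovered from the deposited values, and any pair from the same group correlated across genes at a Pearson r of at least 0.997. All 8 macrophage markers examined were among the rows, with levels that summed to 4592 to 4686 FPKM for Mock, 3257 to 3362 for M1 and 2368 to 2483 for I. Most of that fall lay in Lyz2, with means of 3155, 1138 and 675 FPKM in that order, and Csf1r was 343, 69.8 and 96.1. Some other markers were highest in M1, such as Cd14 at 752, 1550 and 1326 FPKM and Adgre1 at 21.7, 103 and 35.1. Fcgr1 was highest in Mock, at 105, 73.8 and 65.4 FPKM in the same order. Mertk was near 0, with means of 0.031 FPKM in Mock and 0.032 in M1, and stood at 0.29 in I from 22 to 27 fragments a library. FPKM stands for fragments counted on a gene, scaled to the gene's length and the library's depth. Levels of different genes in a library can be set side by side on it, while differences between groups also depend on how libraries are scaled, as given with the counts over all rows. Of the 5 dendritic cell markers 4 were present, with sums of 9.73 to 11.2 FPKM for Mock, 24.7 to 25.2 for M1 and 50.1 to 53.9 for I, most of it Cd83. Lck (3.29 to 5.26 FPKM) and Pax5 (0.013 to 0.053 FPKM) were the only T or natural killer cell and B cell markers analysed, and none of the neutrophil, fibroblast, epithelial or hepatocyte markers was. The part of these marker levels in the results below was not tested.

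Of the 5 genes, 4 were higher in M1 than in Mock, where 30.5% of all rows tested were called higher and 55.3% lower. These 4 differed in how I compared with M1. C3 and Cfp, which rose in M1, were lower in I than in M1, though still above Mock. Cfb and C3ar1 kept their full rise in I. C5ar1 differed little between Mock and M1 and was lower in I than in both. The plot of levels by library shows these patterns with little spread inside a group.

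**Figure D1:**
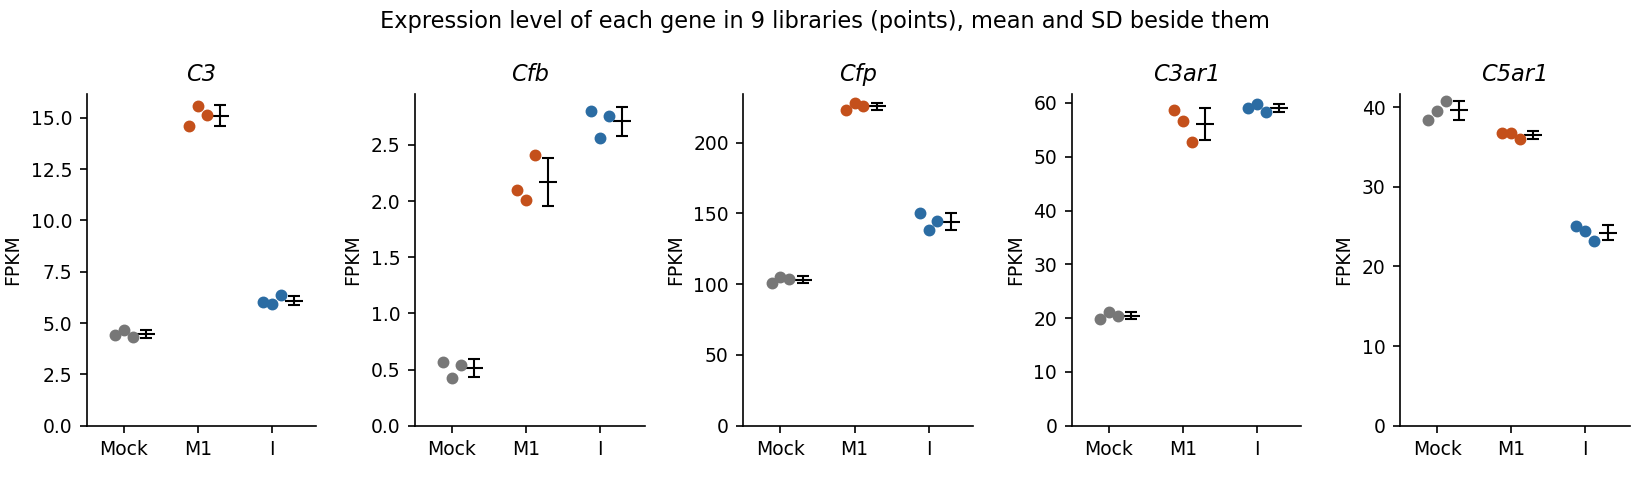
Level of each gene in FPKM (vertical axes, each starting at 0) in the 3 Mock, 3 M1 and 3 I libraries. Points are libraries in the order of replicate number, and the bar beside them is the mean with its SD. C3 peaks in M1 at 14.6 to 15.6 FPKM, while C3ar1 stays at 58.2 to 59.7 FPKM in I.

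Promoter sequences are shown for the 4 genes that the RefSeq table of GRCm38.p6 holds. The reason is that 3 of them rose in M1 and the 4 differed in how I compared with M1. Each window covers 250 bases before to 50 bases after the transcription start, printed 5′ to 3′ on the gene's own strand, which is the minus strand for all 4. Cfb had no entry. Capitals mark matches, on either strand, to any of 7 motifs searched: NF-kB as GGGANNTTC, the interferon-stimulated response element (ISRE) as GAAANNGAA, the STAT-binding gamma-activated site (GAS) as TTCNNNGAA, C/EBP as TTGCNNAA, AP-1 as TGANTCA, PU.1 as GAGGAA and the core of the tonicity element (TonE) as TGGAAA. The windows lie at chr17:57228087-57228386 for C3, chrX:20931506-20931805 for Cfp, chr6:122856108-122856407 for C3ar1 and chr7:16259289-16259588 for C5ar1.
C3: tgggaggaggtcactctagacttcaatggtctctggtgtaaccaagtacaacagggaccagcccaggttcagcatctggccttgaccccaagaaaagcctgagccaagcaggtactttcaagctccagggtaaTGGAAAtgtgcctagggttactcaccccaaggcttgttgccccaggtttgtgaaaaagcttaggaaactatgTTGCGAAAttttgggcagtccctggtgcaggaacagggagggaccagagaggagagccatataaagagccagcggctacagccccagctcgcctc
Cfp: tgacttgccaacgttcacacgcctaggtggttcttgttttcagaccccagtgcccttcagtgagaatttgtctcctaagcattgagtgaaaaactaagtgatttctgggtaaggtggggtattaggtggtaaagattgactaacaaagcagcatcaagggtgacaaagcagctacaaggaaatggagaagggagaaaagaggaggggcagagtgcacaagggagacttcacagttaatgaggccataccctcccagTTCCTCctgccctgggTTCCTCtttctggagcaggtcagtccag
C3ar1: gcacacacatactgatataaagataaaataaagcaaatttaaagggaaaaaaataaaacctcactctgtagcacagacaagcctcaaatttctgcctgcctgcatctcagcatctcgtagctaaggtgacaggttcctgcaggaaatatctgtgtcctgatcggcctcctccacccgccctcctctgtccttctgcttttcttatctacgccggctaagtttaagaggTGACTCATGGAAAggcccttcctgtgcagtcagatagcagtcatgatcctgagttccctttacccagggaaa
C5ar1: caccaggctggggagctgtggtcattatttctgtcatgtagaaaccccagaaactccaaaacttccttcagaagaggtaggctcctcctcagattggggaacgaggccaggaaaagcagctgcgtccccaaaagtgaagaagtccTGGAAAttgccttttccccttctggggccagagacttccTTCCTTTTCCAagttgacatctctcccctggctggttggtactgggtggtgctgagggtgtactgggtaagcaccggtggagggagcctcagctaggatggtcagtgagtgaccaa

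Matches differed from window to window. In C3 a C/EBP match began 45 bases before the start and a TonE core match 117 bases before it. Across all 32851 windows in the table, 10.8% held a C/EBP match and 21.4% a TonE core match. The Cfp window had 2 PU.1 matches on the opposite strand, at bases 7 and 23 after the start, a motif found in 28.3% of windows. In C3ar1 an AP-1 match 22 bases before the start, a motif present in 7.81% of windows, ran directly into a TonE core match 15 bases before it. C5ar1 had TonE core matches 105 and 61 bases before the start, and the second overlapped an ISRE match at 66 bases, a motif in 8.56% of windows. These letters gave no NF-kB or GAS match in any of the 4 windows, against 3.94% and 8.3% of all windows. A match is a description of the sequence only.

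C3 (ENSMUSG00000024164.15) lies on chromosome 17 at 57203970 to 57228136 of GRCm38. The Mock libraries held it at 4.40, 4.66 and 4.33 FPKM. M1 reached 14.6, 15.6 and 15.1, and I gave 6.02, 5.91 and 6.36. The 3 groups did not overlap, with M1 highest and I nearer to Mock. From Mock to M1 the mean rose 3.39-fold, from 4.46 ± 0.18 to 15.1 ± 0.51 FPKM (SD over 3 libraries, as for every mean that follows). On the log2(FPKM + 1) scale, used for all tests and called the log2 scale from here, that was a change of 1.56 ± 0.043 (SE, limma adjusted p = 3.91e-11). Relative to M1, C3 in I fell 2.48-fold to 6.09 ± 0.24 FPKM (log2 change -1.18 ± 0.043 SE, limma adjusted p = 4.67e-09). Of all rows tested, 0.403% had a log2 change in this comparison as low as or lower than that of C3. Its level in I remained above Mock (log2 change 0.38 ± 0.043 SE, limma adjusted p = 7.36e-06), and the difference between I and Mock was 15.3% of that between M1 and Mock. That distance from Mock depends on the scaling, with a log2 change of 0.69 after median-of-ratios (RLE) scaling and 0.79 after quantile normalization. Behind each value stand 418 to 576 fragments for Mock, 1384 to 1754 for M1 and 558 to 656 for I.

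Cfb encodes complement factor B, whose cleaved form is the protease of the alternative pathway convertase (ENSMUSG00000090231.10, chromosome 17, 34856374 to 34862518). It was the lowest of the 5 genes in every library. Mock gave 0.57, 0.43 and 0.54 FPKM, M1 gave 2.10, 2.01 and 2.41, and I gave 2.80, 2.56 and 2.76. The groups did not overlap, although the highest M1 library lay close to the lowest I library. The rise from Mock to M1 was 4.23-fold as a ratio of means, 0.51 ± 0.076 to 2.17 ± 0.21 FPKM (log2 change 1.07 ± 0.064 SE, limma adjusted p = 2.54e-08). A scale with 1 added understates the change of so low a gene, and with 0.1 added the log2 change was 1.89. In I the mean was 2.71 ± 0.13 FPKM, 1.25-fold that of M1 (log2 change 0.23 ± 0.064 SE, limma adjusted p = 0.00954), and 5.28-fold that of Mock (log2 change 1.29 ± 0.064 SE, limma adjusted p = 4.27e-09). Only 21 to 41 fragments stand behind the Mock values, against 118 to 124 for M1 and 133 to 168 for I. Cfb passed the filter on low values through its M1 and I libraries. The GENCODE model Gm20547 overlaps both Cfb and its neighbour C2 on the same strand, and reads over it may not have been credited to Cfb, so the level is uncertain.

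Cfp encodes properdin, the stabilizer of the alternative pathway convertase (ENSMUSG00000001128.7, chromosome X, 20925454 to 20931555). It was the most abundant of the 5, ranking above 96.9% of rows in each library. Mock measured 100.5, 105.4 and 103.3 FPKM, M1 223, 228 and 226, and I 150.4, 138 and 144. M1 was highest and I intermediate, without overlap. The mean rose 2.19-fold from 103 ± 2.4 to 226 ± 2.6 FPKM with polarization (log2 change 1.12 ± 0.032 SE, limma adjusted p = 5.13e-11). With potassium iodide it was 144 ± 6.2 FPKM, down 1.57-fold from M1 (log2 change -0.64 ± 0.032 SE, limma adjusted p = 4.82e-08). That level kept 33.6% of the difference between M1 and Mock and was above Mock (log2 change 0.48 ± 0.032 SE, limma adjusted p = 6.45e-08). The log2 change from Mock to I was 0.85 after RLE scaling and 0.29 after quantile normalization, so the share kept depends on the scaling.

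C3ar1 encodes the C3a receptor (ENSMUSG00000040552.8, chromosome 6, 122847138 to 122856161). Its Mock libraries were at 19.9, 21.1 and 20.4 FPKM, its M1 libraries at 58.6, 56.7 and 52.8, and its I libraries at 59.1, 59.7 and 58.2. Both polarized groups stood far above Mock and overlapped with each other. The mean went up 2.74-fold from 20.5 ± 0.65 to 56 ± 2.9 FPKM in M1 (log2 change 1.41 ± 0.038 SE, limma adjusted p = 3.37e-11) and was 59 ± 0.75 in I, 2.89-fold Mock (log2 change 1.48 ± 0.038 SE, limma adjusted p = 1.91e-11). Between I and M1 the log2 change was 0.07 ± 0.038 SE and was not called (limma adjusted p = 0.112). Without M1 replicate 1, the highest of its group, that difference was 0.11 and was called (limma adjusted p = 0.0316). It was also called higher under each of the 3 other scalings of the libraries tried, at 0.11 to 0.17 (limma adjusted p = 0.00295 to 0.0287).

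C5ar1 encodes the classical C5a receptor (ENSMUSG00000049130.6, chromosome 7, 16246743 to 16259540). The Mock values were 38.4, 39.5 and 40.8 FPKM, those of M1 36.8, 36.8 and 35.9, and those of I 25.1, 24.4 and 23.2. The I libraries were all lowest, and the M1 libraries lay just below Mock. The M1 mean of 36.5 ± 0.49 FPKM was 0.922 of the Mock mean of 39.6 ± 1.2 (log2 change -0.11 ± 0.034 SE, limma adjusted p = 0.00854), a small difference whose sign depends on the scaling, since it was 0.18 with RLE scaling (limma adjusted p = 0.000589) and 0.06 with upper-quartile scaling (limma adjusted p = 0.134). With quantile normalization it stayed lower, at -0.086 (limma adjusted p = 0.03). In I the level fell to 24.2 ± 0.93 FPKM, 0.664 of M1 (log2 change -0.57 ± 0.034 SE, limma adjusted p = 1.65e-07) and 0.612 of Mock (log2 change -0.69 ± 0.034 SE, limma adjusted p = 4.25e-09). The change from Mock was -0.32 after RLE scaling. Of all rows tested, 5.34% had a log2 change as low as or lower than that of C5ar1 in I vs M1. In I vs Mock this share was 30%, and 58.6% of rows were called lower.

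**Figure D2:**
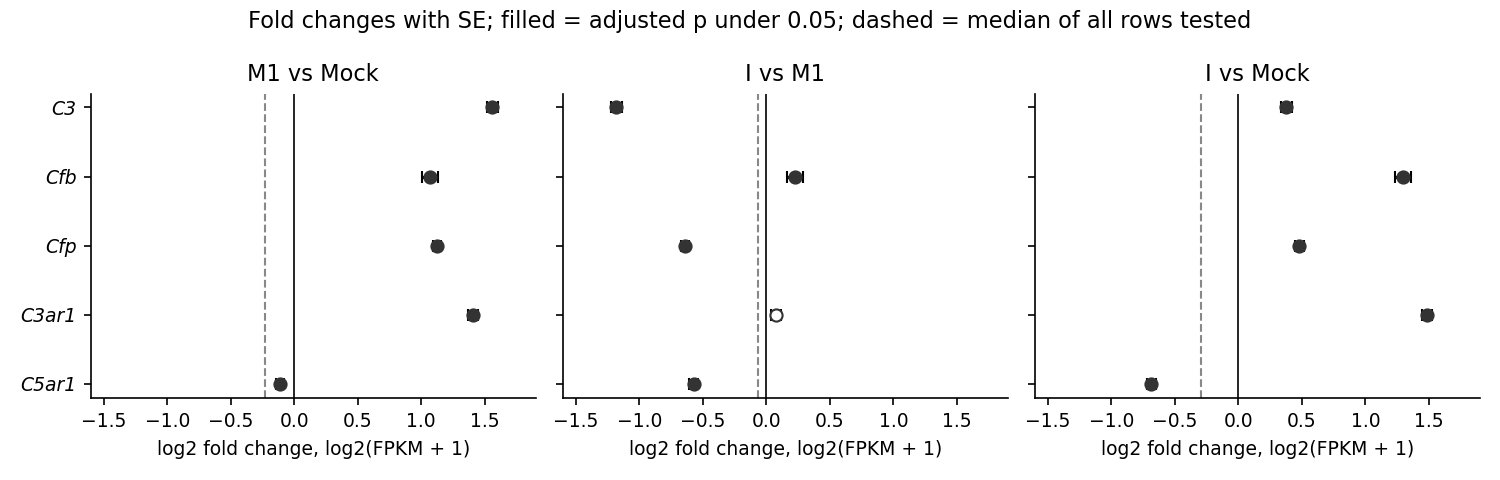
Log2 fold changes of the 5 genes on the log2(FPKM + 1) scale (horizontal axes) in the 3 comparisons, with SE. Filled points have a limma adjusted p under 0.05 and the open point, C3ar1 in I vs M1, does not. The dashed line is the median of all 11156 rows tested, which is -0.23, -0.07 and -0.30 from left to right.

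Counts over all rows give the background for these calls at an adjusted p under 0.05. All 5 genes were among the 11156 rows tested. In M1 vs Mock 4 of the 5 were higher and 1 lower, where 30.5% of rows tested were called higher and 55.3% lower. In I vs M1 1 was higher and 3 lower, where 24.9% of rows were higher and 39.3% lower. In I vs Mock 4 were higher and 1 lower, against 28.2% and 58.6%. The comparisons share libraries with each other. The split of all rows depends on the scaling, with 3405 higher and 6166 lower in M1 vs Mock but 4810 and 4749 after RLE scaling. For I vs M1 it was 2775 and 4382 against 3478 and 3540, and for I vs Mock 3146 and 6534 against 4762 and 4785. RLE scaling moved the median log2 change of all rows from -0.23 to 0.01 in M1 vs Mock and from -0.30 to -0.003 in I vs Mock. Set against the medians of the unscaled values, C5ar1 in M1 vs Mock lay above the median row and the other 4 genes further above it.

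Within a library, the balance of the receptors turned over. In Mock C5ar1 was the more abundant, with C3ar1 at 0.517, 0.535 and 0.499 of its level. In M1 the ratio of C3ar1 to C5ar1 was 1.59, 1.54 and 1.47, and in I it was 2.36, 2.45 and 2.51. No group overlapped another. Scaling a whole library by a common factor, as RLE and upper-quartile scaling do, cannot alter a ratio taken inside it. Quantile normalization can alter such a ratio. The mean ratios were 0.517 ± 0.018 in Mock, 1.53 ± 0.062 in M1 and 2.44 ± 0.076 in I. An exact permutation test gave p = 0.1 for each of the 3 comparisons, two-sided, which is the smallest that 3 against 3 libraries allow (0.12 after Benjamini-Hochberg adjustment over 6 exact tests on ratios).

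The partners of the convertase also separated. The ratio of C3 to Cfb was 7.72, 10.9 and 7.96 in Mock and 6.95, 7.77 and 6.28 in M1, which overlap (exact permutation p = 0.2, adjusted 0.2). In I it was 2.14, 2.30 and 2.30, below every library of the other groups (exact permutation p = 0.1 against each, adjusted 0.12). The mean went from 7 ± 0.74 in M1 to 2.25 ± 0.092 in I, with Cfb counted from few fragments as given above.

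**Figure D3:**
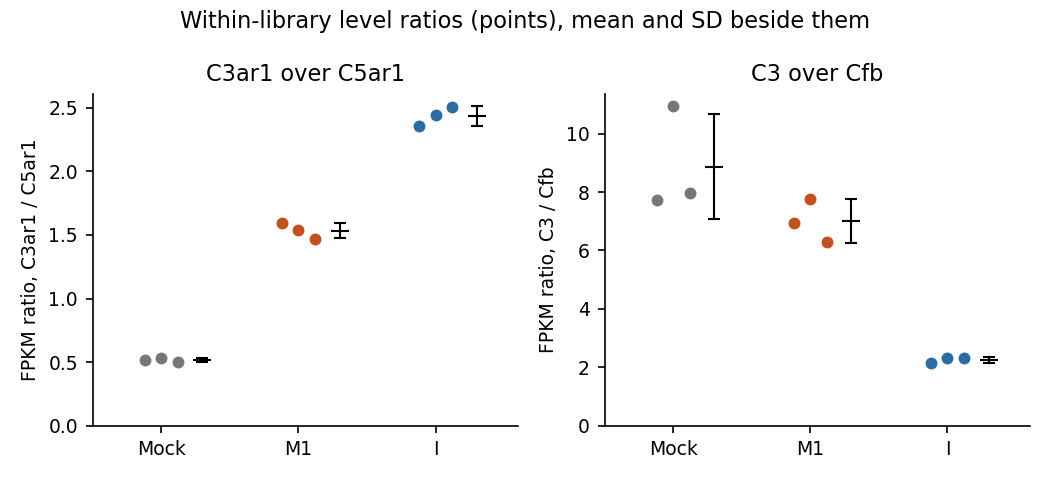
Ratio of FPKM values within each library (vertical axes, starting at 0) for C3ar1 over C5ar1 and for C3 over Cfb, in the 3 Mock, 3 M1 and 3 I libraries. Points are libraries and the bar is the mean with its SD. The receptor ratio climbs from 0.517 to 2.44 across the groups, and the C3 to Cfb ratio in I lies at 2.14 to 2.30.

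By level, Cfp stood first and Cfb last in all 3 groups. C5ar1 came before C3ar1 in Mock and after it in M1 and I, and C3 came just above Cfb throughout. Neighbours in this order did not overlap in any group.

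Other complement genes were taken from lists of the classical, lectin, alternative and terminal pathways, inhibitors, receptors, and receptor coupling and peptide inactivation. Beside the 5 genes these lists name 63, of which 34 were among the rows and 26 were tested. In M1 vs Mock 11 were higher, 10 lower and 5 not called, with a median log2 change of 0.01 beside -0.23 for all rows, of which 30.5% were higher and 55.3% lower. In I vs M1 6 were higher, 17 lower and 3 not called, with a median of -0.25 beside -0.07 for all rows, of which 24.9% were higher and 39.3% lower. In I vs Mock 9 were higher, 15 lower and 2 not called, with a median of -0.23 beside -0.30 for all rows, of which 28.2% were higher and 58.6% lower, shares close to those of the listed genes. With RLE scaling 14 of the listed genes were higher in I vs Mock, as were 4762 of all 11156 rows tested.

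C1ra, Fcna, Masp2 and C8g were the only classical, lectin and terminal pathway genes tested. Each was lower in M1 than in Mock, as were 55.3% of all rows tested. The C1q genes were not among the rows. C1ra, a protease of the C1 complex, had 5.9 ± 0.38 FPKM in Mock, then 2.78 ± 0.14 in M1 and 0.99 ± 0.2 in I, a fall in both steps (log2 change -0.87 and -0.93, limma adjusted p = 5.19e-07 and 1.43e-06), with C1rb a close paralog that can share its reads. The ficolin gene Fcna fell from 3.72 ± 0.13 FPKM to 1.64 ± 0.34 in M1 and to 0.99 ± 0.29 in I (log2 change -0.84 and -0.41, limma adjusted p = 2.19e-05 and 0.00696). Masp2, a lectin pathway protease, fell from 1.13 ± 0.093 to 0.15 ± 0.074 FPKM in M1 and was 0.061 ± 0.025 in I, a difference not called between I and M1 (limma adjusted p = 0.142) but called without M1 replicate 3 (limma adjusted p = 0.0498). Limma-voom on recovered fragments also called Masp2 lower in I than in M1, at a log2 change of -1.145 (limma-voom adjusted p = 0.0335). Masp2 passed the filter only through its Mock libraries. C8g, a component of the membrane attack complex, fell from 1.55 ± 0.083 to 0.76 ± 0.13 FPKM in M1 (limma adjusted p = 0.000371) and was at 0.56 ± 0.24 in I. The fall in M1 was not called with quantile normalization (limma adjusted p = 0.111), and I was called lower than M1 only without I replicate 3 (limma adjusted p = 0.00575, against 0.128 with all libraries). Genes on the other strand overlap Masp2, Fcna and C8g, and whether the counting used strand is not given in the sources used here.

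Inhibitors moved in both directions. Cr1l, the membrane inhibitor known as Crry in mice, dropped from 10.5 ± 0.18 FPKM to 6.18 ± 0.37 with polarization and to 4.63 ± 0.11 with iodide, lower at each step (limma adjusted p = 6.13e-08 and 5.28e-05). Clu, which encodes the fluid-phase inhibitor clusterin, rose from 0.35 ± 0.092 to 3.2 ± 0.43 FPKM in M1 and fell to 1.1 ± 0.11 in I (log2 change 1.63 and -0.99, limma adjusted p = 5.78e-09 and 2.14e-06). Its Mock libraries were all under 0.5 FPKM, from 17 to 40 fragments, so it passed the filter through M1 and I, and the added 1 compresses its change, which was 9.08-fold as a ratio of means. Cd59a, an inhibitor of membrane attack complex assembly, took the same course, from 2.07 ± 0.012 FPKM up to 4.58 ± 0.1 and back to 2.83 ± 0.42 (log2 change 0.86 and -0.55, limma adjusted p = 4.43e-07 and 6e-05).

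Among other receptors, the subunits of complement receptor 3, which binds iC3b, were higher in M1 than in Mock and lower in I than in M1. Itgb2, the shared beta chain, went from 62 ± 1.8 to 367 ± 5 FPKM in M1 and 217 ± 1.8 in I (log2 change 2.55 and -0.76, limma adjusted p = 2.21e-14 and 2.75e-09). Itgam, the alpha chain, went from 14.9 ± 1 to 51.9 ± 0.73 and 36.2 ± 2.2 FPKM (log2 change 1.73 and -0.51, limma adjusted p = 6.67e-11 and 9e-06). C5ar2, the second C5a receptor, was low and took an opposite course, from 1.12 ± 0.068 FPKM to 0.56 ± 0.18 in M1 and 0.98 ± 0.16 in I (log2 change -0.45 and 0.35, limma adjusted p = 0.000572 and 0.00535). The fall of C5ar2 in M1 was not called with quantile normalization (limma adjusted p = 0.111). Gene models overlap Itgam (Gm49368) and C5ar2 (Gm26473) on the same strand, and reads over them may not have been credited to these genes. C1qbp, which encodes a largely mitochondrial protein that can bind C1q, fell from 72.5 ± 0.48 to 32.4 ± 0.59 and 17 ± 0.36 FPKM (log2 change -1.14 and -0.89, limma adjusted p = 1.03e-11 and 1.05e-09). Calr, a chaperone of the endoplasmic reticulum, was at 317 ± 4.9 FPKM in Mock and 319 ± 6.4 in M1 and fell to 272 ± 2.5 in I (limma adjusted p = 1.14e-05). Against Mock, its M1 value was -0.48 on the log2 scale with quantile normalization but 0.31 with RLE scaling, both called.

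Genes listed for receptor coupling and peptide inactivation were also read. Whether their products act on the receptors or on C3a and C5a in these cells was not tested. Gnai2, the inhibitory G protein subunit used by both anaphylatoxin receptors, rose from 99.7 ± 2.3 to 193 ± 7.9 FPKM in M1 and was 165 ± 3.6 in I (log2 change 0.95 and -0.22, limma adjusted p = 2.48e-10 and 0.00015). The gene model Gm19721 overlaps Gnai2 on the same strand, and reads over it may not have been credited to Gnai2. Cpd, a membrane carboxypeptidase that removes C-terminal basic residues, rose 7.15-fold from 16.1 ± 0.25 to 115 ± 4.4 FPKM and stood at 136 ± 6.5 in I (log2 change 2.76 and 0.24, limma adjusted p = 2.3e-13 and 0.000266). The receptor kinase Grk6 fell from 13.5 ± 0.076 to 3.32 ± 0.17 FPKM and was partly restored in I at 5.51 ± 0.46 (log2 change -1.75 and 0.59, limma adjusted p = 9.38e-11 and 4.4e-06). Pik3cg, the catalytic subunit of a G protein-activated lipid kinase, fell from 22.1 ± 0.059 to 9.82 ± 0.39 FPKM and was 11 ± 0.48 in I (log2 change -1.09 and 0.14, limma adjusted p = 3e-10 and 0.0078).

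**Figure D4:**
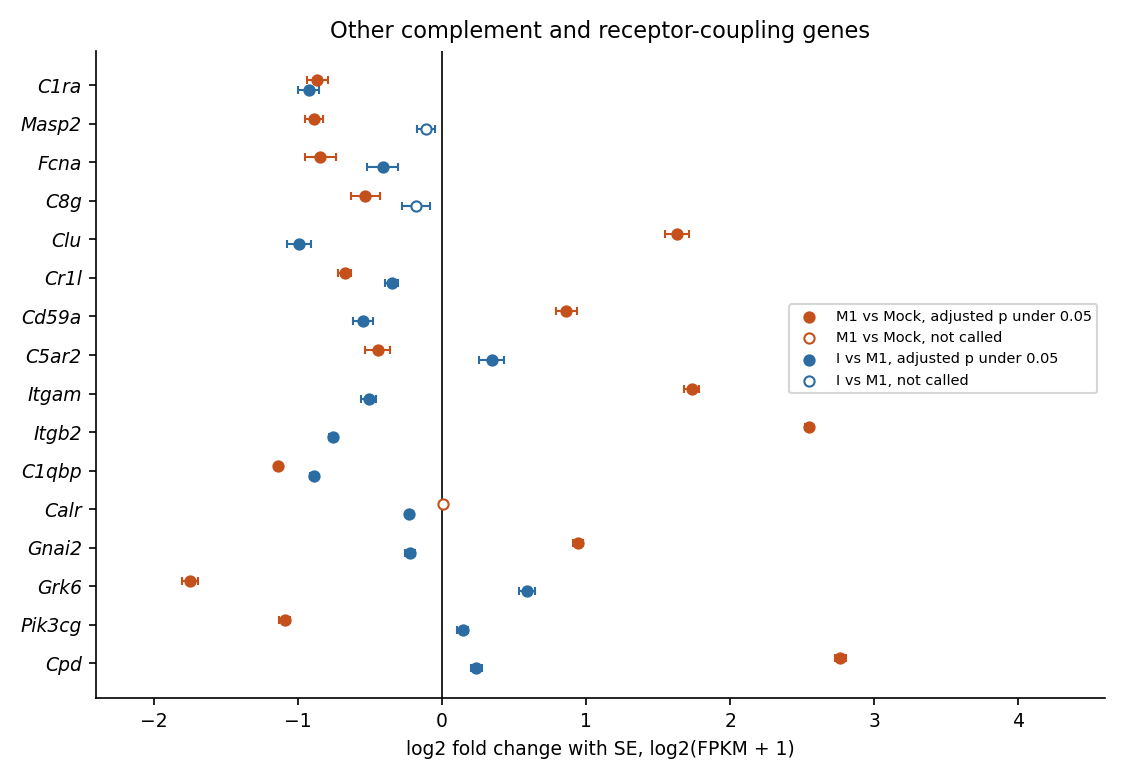
Log2 fold changes with SE on the log2(FPKM + 1) scale (horizontal axis) for the other complement and receptor-coupling genes named here, in M1 vs Mock (orange) and I vs M1 (blue). Filled points have a limma adjusted p under 0.05. Itgb2, Itgam, Clu, Cd59a and Gnai2 lie to the right for M1 vs Mock and to the left for I vs M1, all called, as C3 and Cfp do.

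Genes with the most similar course were sought among rows whose highest group mean reached 10 FPKM, by the root mean square difference over the 9 libraries of log2 values set to 0 at the Mock mean. With only 3 groups, many rows share any given course. The nearest to C3 was Aldh1b1 (difference 0.122, Pearson r 0.992), with means of 4.85, 14.5 and 6.33 FPKM in Mock, M1 and I, followed by Sod2 (0.158) and Anxa3 (0.159). Cfb was nearest to Cflar (0.0582), Ankrd50 (0.0643) and Klhl6 (0.0667), but only on this scale, which compresses the change of so low a gene: the Cflar means were 21.1, 43.4 and 51.5 FPKM, a smaller ratio of M1 to Mock than the 4.23 of Cfb. For Cfp the nearest row was Gpnmb (0.0483, r 0.997), at 61.6, 140.3 and 87.3 FPKM, then Psmb9 (0.0674) and Dhrs3 (0.0689). C3ar1 was nearest to Pkp2 (0.0511), Lin54 (0.0581) and Ypel5 (0.0666). C5ar1 was nearest to Mrpl39 (0.0406, r 0.993), which had 24.1, 23 and 14.5 FPKM, and then to Rpl3 (0.0526) and Ndufv1 (0.0571). C3 had the most distant nearest rows of the 5 genes.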

How the data were processed

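RNA from 9 RAW264.7 libraries in 3 groups was analysed. The authors deposited 1 table of FPKM per library; the unit was read from the values, since no header names it. Per the submitters' processing notes the authors used fastp 0.20.1, HISAT2 2.2.1 and featureCounts 2.0.1 with the GRCm38 genome; their settings and the gene models counted are not stated there. All rows hold values above 0 throughout, which leaves a gene with a 0 anywhere outside the analysis. Multiplying FPKM by GENCODE vM21 exon length, which matched 12204 rows, gave whole fragments (within 0.05) in all libraries for 11996 rows, and with them each library's total.

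Rows with at least 0.5 FPKM in at least 3 libraries (11156) were fitted with limma 3.58.1 in R 4.3.3 on log2(FPKM + 1), 1 term per group, with moderated variance and an intensity trend. P-values were adjusted over all rows tested by the Benjamini-Hochberg method and called under 0.05. The fit was also tested on simulated data. Levels, ratios and exact permutation tests were computed in Python 3.11.15 with SciPy 1.17.1. The lists' genes were named where called at least 2-fold on that scale in a comparison or among the 2 highest of their list, with C5ar2 added after its values were seen. The other tested genes are given only in the counts, and 1 gene that met this rule is not reported here. The 5 genes, the lists and the tests were chosen with earlier results of these data known. The alternatives were 0.1 in place of 1, 2 other filters, 3 other scalings, no trend, only the groups compared, a replicate block, limma-voom on recovered fragments, and leaving out each library. Coordinates are GENCODE vM21 on GRCm38, and promoter windows are RefSeq, GRCm38.p6.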

Additional observations from a re-analysis of the deposited data

How the results depend on the processing

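Each result was recomputed under 19 alternatives. The calls and directions of C3, Cfp and Cfb held in all 3 comparisons under each alternative that tested them; Cfb was not tested with at least 1 FPKM required in all 9 libraries. The log2 change of C3 in I vs M1 ranged from -1.31 to -1.10, that of Cfp from -0.67 to -0.53 and that of Cfb from 0.19 to 0.33. In I vs Mock the ranges were wider, at 0.35 to 0.79 for C3, 0.29 to 0.85 for Cfp and -0.71 to -0.32 for C5ar1. C5ar1 in M1 vs Mock turned to 0.18 with RLE scaling and 0.057 with upper-quartile scaling, and stayed at -0.086 with quantile normalization; all 3 move the median of all rows upward. C3ar1 in I vs M1 was called with RLE (0.15), upper-quartile (0.11) and quantile (0.17) scaling, and ranged from 0.034 to 0.11 when single libraries were left out. Calr turned to -0.48 in M1 vs Mock with quantile normalization and to 0.16 in I vs Mock with RLE scaling. C5ar2 in I vs Mock turned to 0.24 with quantile normalization. Of the other complement genes, fewer were tested with at least 1 FPKM required throughout. There 4 of them were lower in M1 vs Mock, as were 4802 of all 8914 rows. With RLE scaling 14 of them were higher in I vs Mock, as were 4762 of all 11156 rows. Same-numbered libraries of different groups had deviations from their group means with r of -0.115 to 0.0474. For libraries with other numbers r was -0.085 to 0.1185. No pairing by number was seen, which cannot exclude that cultures were handled in numbered sets. With a replicate block no call of the 5 genes changed, and I vs M1 had 2713 rows higher and 4319 lower. Depth limits the Mock values of Cfb, at 21 to 41 fragments a library.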
